A study of Mus musculus with 6 samples.

Results

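Maternal oocyte transcripts are the RNAs that a growing oocyte makes and stores for its own maturation and for the first divisions of the embryo. The group described here holds 40 genes: maternal-effect genes, germ cell regulators, and members of multigene families that mice express mainly in oocytes (the Nlrp, Obox, Oog, Oosp, Omt2, Fbxw and Tcl1 families). The genes were found by symbol among the probe sets that the array's annotation assigns to exactly 1 gene. Of the 40 genes, 34 had such a probe set (39 probe sets in all), among 18193 genes on the array that had one. For a gene with several, the one brightest on average over the 6 arrays stood for the gene. The list was drawn up with earlier results of this same comparison known, so the genes were in part selected on the WT and FORKO signals given here: the counts below describe them and are no independent evidence of their direction.

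The data are microarray signals of whole ovaries from female mice aged 8 months. There were 3 wild-type (WT) samples and 3 samples from FORKO mice, in which all variants of the receptor for follicle-stimulating hormone (FSH) were deleted; both kinds of mice came from heterozygous parents of the 129T2 svEmsJ background. The left and right ovary were pooled, the labels do not say how many mice gave each RNA, and each sample had its own Affymetrix Mouse Genome 430 2.0 array. Titles and genotype fields give the groups, while the free-text fields of the FORKO samples speak of wild-type mice, and the labels do not resolve this. The comparison asks how the ovary's transcripts differ when granulosa cells cannot respond to FSH.

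Follicles grow from a resting pool, and the oocyte accumulates RNA while the granulosa cells around it divide. FSH acts on granulosa cells, not on the oocyte, and carries follicles through the antral stage; oocyte growth begins before that stage. Many maternal transcripts are held in an untranslated state and are used or degraded at meiotic maturation. Their protein products include the subcortical maternal complex, a structure under the egg's membrane that contains NLRP5, TLE6 and KHDC3 and is needed for early cleavage.

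Signals are MAS5 values, an array intensity on a linear scale, scaled here so that all arrays share 1 trimmed mean. Changes are differences, FORKO less WT, of log2(signal + 5.73), where the added constant makes changes of dim genes look smaller, and the value after ± is a standard error for a change and a standard deviation over n = 3 arrays for a signal. A gene was tested where its mean signal over the 6 arrays reached 20.4, the median of all probe sets. "Fell" and "rose" are used for an adjusted p under 0.05 in limma's test over all 22506 probe sets kept. The deleted gene, Fshr, read 99.6, 59.4 and 118.8 on WT arrays 1, 2 and 3 and 1.2, 11.2 and 11.7 on FORKO arrays 1, 2 and 3. Deposited trimmed means ran from 80.6 to 98.4. The 5′ to 3′ signal ratio of the Gapdh controls, a measure of RNA and label quality, ran from 0.104 to 0.187 in WT and from 0.112 to 0.191 in FORKO arrays. FORKO replicate 1 stood apart: its log2 signals correlated at 0.934 and 0.936 with the other FORKO arrays, which correlated at 0.976 with each other.

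Of the 34 genes with a probe set, 24 passed the filter on dim signals and 10 did not. Of the 24, 15 fell, 0 rose and 9 did not pass the test. Among all 11199 genes tested, 0.839% fell and 1.3% rose, and 1.65% of all probe sets passed. All 24 changes were below 0, as were 52.6% of those of all genes tested. Their median (log2) was -1.25, against -0.02 over all genes tested. In 18 of the 24 the change was at least 2-fold down, as in 1.67% of all genes. In 23 of the 24 every FORKO array lay below every WT array, a pattern seen for 12.0% of all genes, and in none did every FORKO array lie above, as in 10.7% of all. The filter itself favours genes that are high in 1 group. Without it 30 of the 34 genes (88.2%) had a change below 0, against 49.3% of all genes, their median was -1.09, against 0.0045 over all genes, and 6 fell, against 0.319% of all genes. With a stricter filter 4 of 10 fell, against 0.786% of all genes. In these bulk samples, fewer oocytes per ovary and less of these RNAs per oocyte cannot be told apart.

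**Figure D1:**
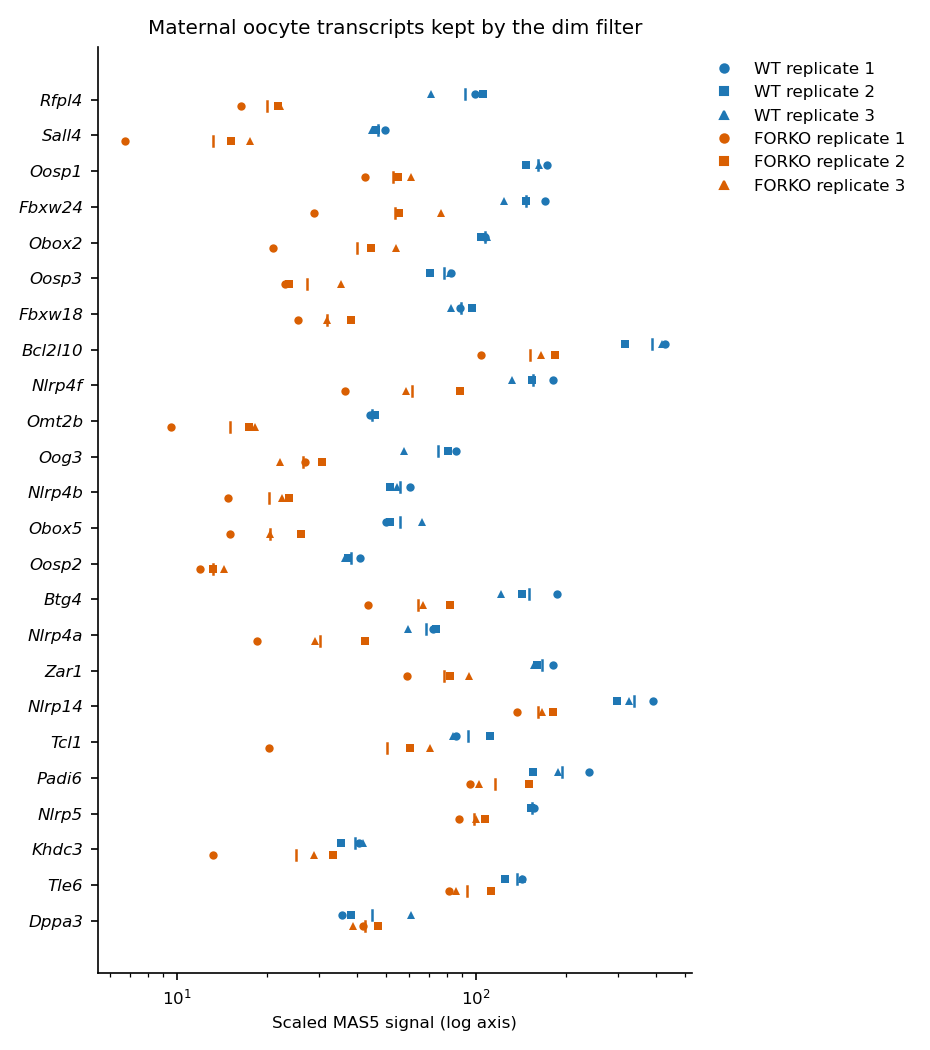
Scaled MAS5 signal (log axis) of the 24 maternal oocyte genes kept by the dim filter, by array; blue symbols are WT and orange symbols FORKO replicates, and short vertical lines are group means. The FORKO symbols lie left of all WT symbols in 23 of the 24 rows, Dppa3 being the exception.

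The count rested on all WT arrays. Without WT replicate 1, 2 or 3, 2 genes fell in each case (against 0.295%, 0.179% and 0.161% of all genes), and these were Rfpl4 and Oosp1, which passed in all 6 fits that leave out an array. The count was 17, 13 and 6 without FORKO replicates 1, 2 and 3, where 1.61%, 0.616% and 0.393% of all genes fell. The median change of the 24 genes ran from -1.36 to -1.07 over the 6 fits. With the replicate number as a block, 15 of the 24 genes again fell, against 1.58% of all genes: Nlrp4f passed (adjusted p = 0.0443) and Fbxw24 no longer did (0.0526).

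The largest fall was that of Rfpl4, a RING finger protein of oocytes that interacts with ubiquitin-pathway proteins. Its arrays read 99.4, 105.9 and 70.9 in WT and 16.4, 21.8 and 22.1 in FORKO, in the order of replicates 1 to 3 as in all that follows. The lowest WT signal was more than 3 times the highest FORKO signal. The FORKO mean was 21.8% of the WT mean, the log2 change was -1.91 ± 0.22 and the limma adjusted p was 0.00592 (0.0458 at most over the fits without an array). Among all 11199 genes it ranked 23 from the most negative change. Rfpl4 had 1 probe set.

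The promoter of Rfpl4 is shown because that gene had the largest change, and that of Oosp1 because it was the other gene to pass in every fit. Tle6 is shown beside them because it had the change nearest to 0 among Nlrp5, Tle6, Khdc3 and Padi6, none of which passed. Each window is the 250 bases before the annotated start in RefSeq (GRCm38.p6), 5′ to 3′ on the gene's strand, with the E-box letters CANNTG in capitals (N is any base; the motif reads alike on both strands). E-boxes are bound by helix-loop-helix factors, among them the oocyte factor FIGLA. The windows lie at chr7:5116912-5117161, minus strand (Rfpl4), chr19:11691052-11691301, minus strand (Oosp1) and chr10:81600901-81601150, minus strand (Tle6).
Rfpl4: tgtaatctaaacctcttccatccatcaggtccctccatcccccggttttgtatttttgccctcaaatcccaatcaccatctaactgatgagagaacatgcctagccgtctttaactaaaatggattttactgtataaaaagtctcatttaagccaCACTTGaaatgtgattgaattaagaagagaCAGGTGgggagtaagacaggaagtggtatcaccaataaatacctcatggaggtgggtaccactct
Oosp1: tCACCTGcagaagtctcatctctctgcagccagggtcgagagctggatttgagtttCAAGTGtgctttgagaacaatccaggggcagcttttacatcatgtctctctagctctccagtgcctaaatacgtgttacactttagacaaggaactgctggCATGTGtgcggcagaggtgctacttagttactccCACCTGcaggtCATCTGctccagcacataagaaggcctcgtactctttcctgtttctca
Tle6: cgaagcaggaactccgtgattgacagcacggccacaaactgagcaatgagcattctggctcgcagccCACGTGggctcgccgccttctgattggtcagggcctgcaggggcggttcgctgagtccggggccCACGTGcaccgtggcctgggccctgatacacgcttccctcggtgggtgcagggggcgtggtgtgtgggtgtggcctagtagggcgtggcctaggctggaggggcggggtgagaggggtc

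The Rfpl4 window held 2 matches, the Oosp1 window 5 and the Tle6 window 2. Both Tle6 matches were CACGTG, a form absent from the capitals of the other windows. RefSeq's table gave a window for 31 of the 40 genes, and 29 of these held CANNTG, against 66.1% of the 27025 windows of all genes, 1 per gene. Some of the 31 windows are near copies, such as Fbxw15 and Fbxw24 (90.0% identical) and Obox1 and Obox5 (87.0%). The same sites are thus counted more than once, and the difference in share was not tested. The homeobox letters TAATTG, searched on both strands, were in 4 of the 31 windows and in 7.35% of all windows. TATAAA, on both strands, was in 4 of 31 and in 13.0% of all, Rfpl4 among the 4. A match is only a match of letters.

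All 3 Oosp genes fell in the fit of all 6 arrays. They encode small secreted proteins related to the placental protein PLAC1. In the 6 fits that leave out an array, Oosp1 passed in 6, Oosp3 in 3 and Oosp2 in 1. Oosp1 read 173.0, 147.2 and 163.4 in WT and 42.8, 55.0 and 60.7 in FORKO arrays. The groups were far apart beside their spread, and the FORKO mean was 32.8% of the WT mean (log2 change -1.52 ± 0.19, limma adjusted p = 0.00799). Oosp3 read 82.7, 70.4 and 82.4 in WT and 23.0, 23.7 and 35.4 in FORKO arrays (log2 change -1.37 ± 0.22, limma adjusted p = 0.0166). Oosp2 read 41.1, 37.3 and 36.7 in WT and 12.0, 13.2 and 14.4 in FORKO arrays. Arrays of a group were close to each other, and the log2 change was -1.22 ± 0.23 (limma adjusted p = 0.0308). The FORKO means of the 3 genes were 32.8% to 34.8% of their WT means. The upstream windows of Oosp1 and Oosp2 shared no run longer than 9 bases.

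Of the F-box genes of the Fbxw15 cluster, which encode substrate adaptors of ubiquitin ligases, both genes of the list with a probe set fell. Of the other genes of that cluster, Fbxw16, Fbxw19, Fbxw21 and Fbxw22 were tested and none passed (limma adjusted p = 0.0589, 0.211, 0.0648 and 0.550). Their changes were -1.0, -1.19, -1.26 and -0.52, and 52.6% of all genes tested had a change below 0. In all but Fbxw22 every FORKO array lay below every WT array, a pattern seen for 12.0% of all genes. The relatives Fbxw13 and Fbxw14 were under the dim filter. Fbxw18 read 88.4, 97.2 and 82.6 in WT and 25.5, 38.2 and 31.9 in FORKO arrays. Fbxw24 read 170.9, 147.9 and 124.1 in WT and 28.9, 55.4 and 76.7 in FORKO arrays. No array of one group reached the other group's range in either gene, but the FORKO arrays of Fbxw24 differed more among themselves. The changes were -1.35 ± 0.20 for Fbxw18 and -1.45 ± 0.30 for Fbxw24 (limma adjusted p = 0.0147 and 0.0472). No probe set was named for Fbxw15.

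These genes are close copies, which their upstream sequences show. In the 250 bases before the starts of Fbxw18 (chr9:109702701-109702950, minus strand) and Fbxw24 (chr9:109626060-109626309, minus strand), 217 of 270 aligned positions were identical, and the capitals mark their longest shared run of 56 bases.
Fbxw18: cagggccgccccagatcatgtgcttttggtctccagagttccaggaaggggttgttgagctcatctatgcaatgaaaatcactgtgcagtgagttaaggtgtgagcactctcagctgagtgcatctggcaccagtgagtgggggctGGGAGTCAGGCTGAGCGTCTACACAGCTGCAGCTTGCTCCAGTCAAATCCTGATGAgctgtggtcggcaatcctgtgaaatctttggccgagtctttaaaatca
Fbxw24: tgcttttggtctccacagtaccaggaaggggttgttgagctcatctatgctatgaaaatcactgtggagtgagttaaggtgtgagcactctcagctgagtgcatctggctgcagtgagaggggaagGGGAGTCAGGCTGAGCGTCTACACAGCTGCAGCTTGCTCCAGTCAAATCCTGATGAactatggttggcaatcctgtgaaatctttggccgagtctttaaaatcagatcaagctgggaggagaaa
The windows of Fbxw15 and Fbxw24 matched at 226 of 251 aligned positions. For comparison, the unrelated windows of Rfpl4 and H1f8 matched at 125 of 280, the level that alignment alone gave. Probe sets of such copies can share signal, so the values of single family members are uncertain.

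The oocyte-specific homeobox genes Obox2 and Obox5 both fell. They encode DNA-binding proteins of oocytes and early embryos, and they lie in an array of copies. Obox2 read 107.7, 104.4 and 109.0 in WT and 21.0, 44.8 and 54.2 in FORKO arrays. The WT arrays were nearly equal, while FORKO replicate 1 lay well under the other FORKO arrays. The log2 change was -1.38 ± 0.28 (limma adjusted p = 0.0462), and the second probe set of the gene gave -1.41 (0.0397). Both probe sets carry the suffix _x_at, by which Affymetrix marks probes that may also bind other transcripts. Obox5 read 50.0, 51.9 and 66.2 in WT and 15.1, 26.0 and 20.6 in FORKO arrays (log2 change -1.25 ± 0.24, limma adjusted p = 0.0350). Obox3 and Obox6 were under the dim filter, and Obox1 shares its probe set with another symbol and was not read.

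The upstream windows of Obox2 (chr7:15388601-15388850, plus strand) and Obox5 (chr7:15750120-15750369, plus strand) show how far these copies run alike. Their longest shared run, 42 bases in capitals, ends at the annotated start in Obox2 and lies further upstream in Obox5.
Obox2: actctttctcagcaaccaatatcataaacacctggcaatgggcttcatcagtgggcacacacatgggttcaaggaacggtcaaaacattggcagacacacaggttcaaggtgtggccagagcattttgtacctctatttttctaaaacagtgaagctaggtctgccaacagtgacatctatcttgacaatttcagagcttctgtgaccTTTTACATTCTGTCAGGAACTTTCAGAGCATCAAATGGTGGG
Obox5: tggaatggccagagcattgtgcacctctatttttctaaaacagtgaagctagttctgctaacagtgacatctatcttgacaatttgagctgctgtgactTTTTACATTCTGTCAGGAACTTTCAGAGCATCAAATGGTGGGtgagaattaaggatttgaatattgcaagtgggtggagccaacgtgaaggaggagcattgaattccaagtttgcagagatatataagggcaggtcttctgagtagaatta
The annotated starts thus lie at different places of a shared sequence, so the 2 windows are offset from each other. The windows of Obox1 and Obox5 were aligned at 228 identical of 262 positions.

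Among the NLR genes, which encode proteins with a nucleotide-binding domain and leucine-rich repeats, the changes varied. Nlrp14, needed in the oocyte for early embryo development, read 391.7, 296.8 and 325.7 in WT and 137.7, 181.0 and 166.9 in FORKO arrays. All FORKO signals were below the WT signals (log2 change -1.04 ± 0.18, limma adjusted p = 0.0260). Nlrp4b read 60.4, 51.9 and 54.6 in WT and 14.9, 23.7 and 22.5 in FORKO arrays (log2 change -1.25 ± 0.23, limma adjusted p = 0.0282), again without overlap. Nlrp4f lay just outside the threshold (limma adjusted p = 0.0501), with 180.9, 154.1 and 132.4 in WT and 36.5, 88.6 and 58.3 in FORKO arrays. Nlrp4a did not pass either (-1.10 ± 0.27, limma adjusted p = 0.0831). It read 59.2 to 73.7 in WT and 18.5, 42.7 and 29.0 in FORKO arrays, so FORKO replicate 2 was the highest of its group in Nlrp4a as in Nlrp4f. Nlrp2 had no named probe set, and Nlrp9a, Nlrp9b and Nlrp9c were under the dim filter.

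Nlrp5, also known as Mater, encodes a core protein of the subcortical maternal complex. It read 157.2, 153.6 and 153.9 in WT and 88.1, 107.9 and 100.1 in FORKO arrays. The WT spread was very small (154.9 ± 2.03, n = 3), the groups did not overlap, and the FORKO mean was 63.7% of the WT mean. The change of -0.63 ± 0.17 did not pass (limma adjusted p = 0.108). Tle6, a Groucho-related protein of the same complex, read 143.0, 125.9 and 142.7 in WT and 81.4, 112.4 and 86.1 in FORKO arrays (-0.54 ± 0.19, limma adjusted p = 0.211). Khdc3, also known as Filia, read 40.6, 35.4 and 42.1 in WT and 13.2, 33.3 and 28.7 in FORKO arrays (-0.61 ± 0.29, limma adjusted p = 0.377). Without FORKO replicate 1 the Khdc3 change was -0.30. Padi6, a peptidylarginine deiminase of the oocyte's cytoplasmic lattices, read 240.0, 155.2 and 189.2 in WT and 95.7, 150.5 and 102.3 in FORKO arrays (-0.72 ± 0.23, limma adjusted p = 0.178).

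These 4 genes and Dppa3 had the 5 changes nearest to 0 among the 24 genes, and the difference from the other 19, whose changes ran from -1.91 to -0.96, was not tested. The 4 changes lay between -0.72 and -0.54. Of the 4, none passed in any fit that leaves out an array. Ooep, another gene of the complex that is not among the 40, read 87.7, 68.0 and 58.5 in WT and 35.9, 64.6 and 82.5 in FORKO arrays, so that the groups overlapped (limma adjusted p = 0.748). Dppa3, also known as Stella, which protects the maternal genome from loss of DNA methylation, read 35.6, 38.2 and 60.8 in WT and 41.9, 47.0 and 38.8 in FORKO arrays. Its change was -0.04 ± 0.24 (limma adjusted p = 0.963), and the groups overlapped.

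**Figure D2:**
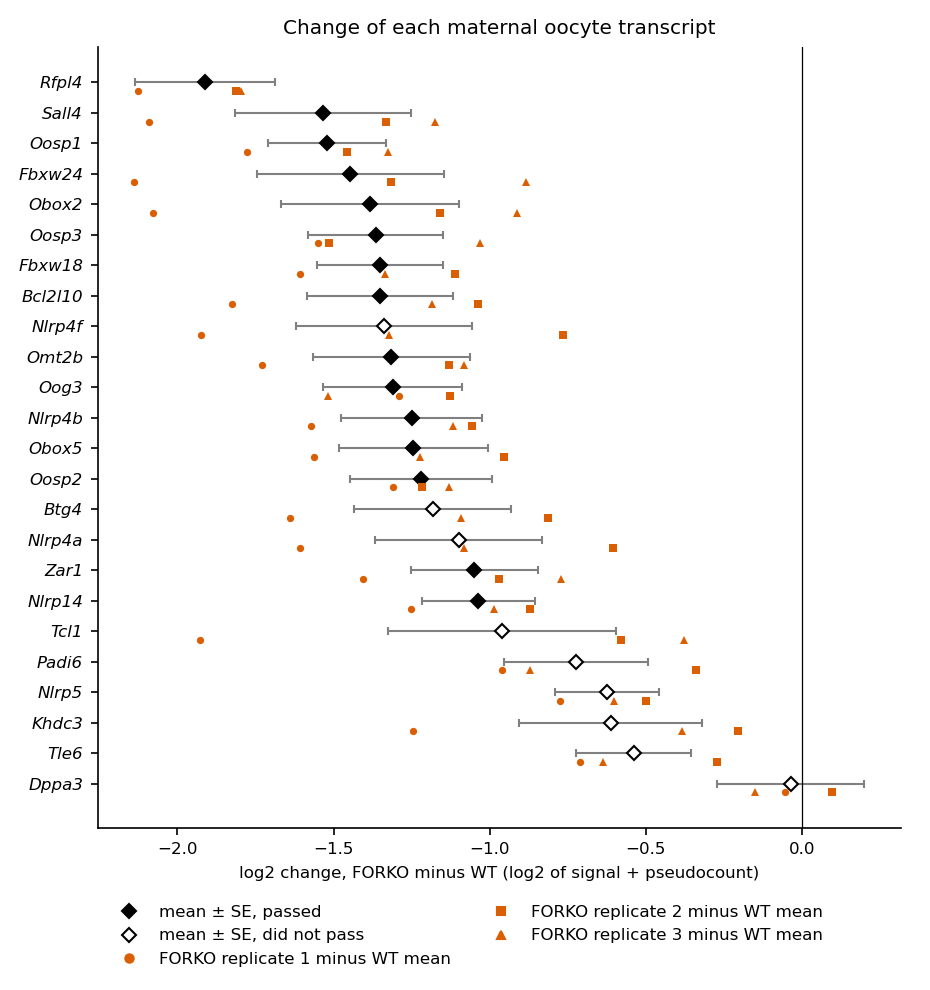
Change on the log2(signal + pseudocount) axis, FORKO minus WT, of the 24 genes kept, in order; diamonds with bars are means ± SE (filled where the limma test passed, open where it did not), and orange symbols are single FORKO arrays against the WT mean. The changes run from -1.91 for Rfpl4 to -0.04 for Dppa3, and Padi6, Nlrp5, Khdc3 and Tle6 lie between -0.72 and -0.54.

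Among the genes of nuclear and chromatin proteins, Sall4 fell. It encodes a zinc-finger factor of oocytes and stem cells. It read 49.6, 46.6 and 45.0 in WT and 6.7, 15.2 and 17.6 in FORKO arrays. The FORKO mean was 28.0% of the WT mean, the second lowest share among the 24 genes after Rfpl4 (log2 change -1.53 ± 0.28, limma adjusted p = 0.0307). A second Sall4 probe set was under the dim filter, at 7.8 or less on all arrays. H1f8, the linker histone of oocytes, was also under the filter, although the groups were far apart: its arrays read 28.6, 29.4 and 28.2 in WT and 3.0, 6.8 and 11.5 in FORKO. Npm2, the oocyte nucleoplasmin, had no named probe set.

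Of the genes that act on stored RNA and in meiosis, Zar1 fell. It encodes an RNA-binding protein that stabilises maternal RNA. It read 181.6, 160.0 and 157.4 in WT and 59.1, 81.9 and 94.7 in FORKO arrays, with no overlap (log2 change -1.05 ± 0.20, limma adjusted p = 0.0368). Btg4, an adaptor of the deadenylase that clears maternal RNA, lay just outside the threshold (limma adjusted p = 0.0513). It read 186.7, 143.5 and 121.8 in WT and 43.7, 81.9 and 66.5 in FORKO arrays, which again did not overlap. Mos, the kinase that keeps the egg arrested at metaphase II, was under the dim filter with 17.0, 30.8 and 26.5 in WT and 15.6, 8.7 and 13.9 in FORKO arrays. Dazl and Ddx4, which encode RNA-binding proteins of germ cells at all stages, were dim in both groups. Dazl read 10.1 to 27.4 in WT and 14.4 to 19.5 in FORKO arrays, and Ddx4 read 13.0 to 14.2 and 11.8 to 18.1. A second Dazl probe set read 11.9 to 21.5 in WT and 8.7 to 15.0 in FORKO arrays.

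Bcl2l10, which encodes a BCL2-family protein abundant in oocytes, fell. It read 430.6, 315.5 and 419.8 in WT and 104.6, 184.4 and 166.0 in FORKO arrays. The FORKO mean was 39.0% of the WT mean (log2 change -1.35 ± 0.23, limma adjusted p = 0.0244). Tcl1, a coactivator of AKT kinases in oocytes and early embryos, read 86.1, 111.8 and 84.3 in WT but 20.3, 60.5 and 70.5 in FORKO arrays and did not pass (limma adjusted p = 0.260). FORKO replicate 1 gave most of its change, which was -0.48 without that array and -0.96 with it. Oog3, an oogenesin with leucine-rich repeats, read 85.9, 80.9 and 57.7 in WT and 26.8, 30.7 and 22.1 in FORKO arrays (log2 change -1.31 ± 0.22, limma adjusted p = 0.0232). All FORKO signals were far under the WT signals. The second Oog3 probe set gave a log2 change of -1.66 (limma adjusted p = 0.0202), and both carry suffixes of probes shared with other transcripts. Omt2b, an oocyte maturation gene, read 44.5, 45.9 and 45.0 in WT and 9.6, 17.5 and 18.3 in FORKO arrays (log2 change -1.31 ± 0.25, limma adjusted p = 0.0349). Its WT arrays were nearly equal, and FORKO replicate 1 was the lowest. Oog1 and Oas1d share their probe sets with other symbols and were not read.

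The genes under the dim filter were set against a level at which no transcript is present. Female mice have no Y chromosome, and 10 probe sets of 4 Y-linked genes read 0.1 to 16.1 here, with a median of 1.65. Of the 10 dim members, 3 were above 16.1 on every WT array: H1f8, Omt2a and Mos. Probe sets of 5 testicular germ cell genes, also not expected in an ovary, read up to 25.9, a level that H1f8 alone exceeded on every WT array. Omt2a read 35.8, 22.7 and 27.3 in WT and 8.9, 9.8 and 15.9 in FORKO arrays, so all its FORKO signals were within the Y-linked range. Nlrp9c read 14.1, 26.1 and 23.1 in WT and 6.9, 10.2 and 4.0 in FORKO arrays, also without overlap, but its second probe set read 7.9 to 9.8 and 5.8 to 9.0, with overlap. Obox3 read 18.4, 10.9 and 8.1 in WT and 6.6, 6.5 and 7.7 in FORKO arrays, within or close to that range throughout. Nlrp9b was at 0.5 to 1.7 in WT and 1.7 to 8.0 in FORKO arrays, and Obox6 at 4.2 to 12.5 over all arrays, so neither was above the Y-linked range. Nlrp9a read 15.4 to 22.7 in WT and 1.4, 17.4 and 19.3 in FORKO arrays, which overlapped. Nearest to the filter lay Oosp2 inside it and Omt2a outside it. Genes that fell could also have FORKO signals in the Y-linked range, on all FORKO arrays or on some. Oosp2 read 12.0, 13.2 and 14.4 on the FORKO arrays, Sall4 6.7, 15.2 and 17.6, and Omt2b 9.6, 17.5 and 18.3. Nlrp4b and Obox5 were in that range on FORKO array 1 only, at 14.9 and 15.1. The FORKO means of Oosp2, Sall4, Omt2b, Rfpl4 and Nlrp4b (13.2 to 20.35) were under 20.4, so WT signals carried these genes over the filter. The size of such falls is uncertain.

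**Figure D3:**
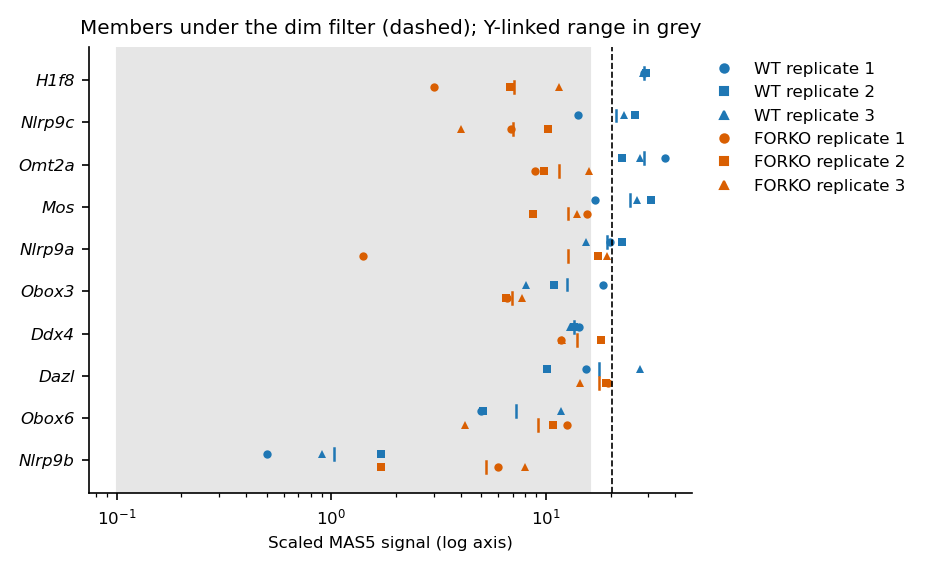
Scaled MAS5 signal (log axis) by array of the 10 maternal oocyte genes under the dim filter of 20.4 (dashed line); blue symbols are WT and orange symbols FORKO replicates, short vertical lines are group means, and grey marks the 0.1 to 16.1 range of the Y-linked probe sets. H1f8 and Omt2a lie above the grey range in WT and inside it in FORKO arrays, while the groups overlap for Dazl and Ddx4.

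FORKO replicate 1 was the lowest FORKO array for 22 of the 24 genes, Oog3 and Dppa3 being the exceptions, against 41.8% of all genes tested. Set against the WT mean, the 24 genes had a median of -1.59 (log2) on that array, of -1.01 on FORKO array 2 and of -1.08 on FORKO array 3. Without that array the median of the 24 genes was -1.07, and 17 genes fell: Nlrp4f and Btg4 passed in addition (limma adjusted p = 0.0209 and 0.0299). Markers of other cells also differed in that array. The summed signal of 7 granulosa genes was 6047 in FORKO replicate 1, against 9510 and 10610 in the other FORKO arrays and 9995 to 11060 in WT. The granulosa genes did not move as a group. Inha, Nr5a2 and Hsd17b1 read 2008.8, 207.3 and 138.6 in FORKO replicate 1, under all WT arrays. Amhr2 and Foxl2 read 2840.5 and 849.5 there, above all WT arrays. Fshr fell, and with the replicate block Nr5a2 passed as lower and Amhr2 as higher (limma adjusted p = 0.0421 and 0.0346). These calls are of each gene's brightest probe set. Without the block, dimmer probe sets of Amhr2 passed as higher (limma adjusted p = 0.0349 and 0.04185). Of the dimmer tested probe sets of Nr5a2, 1 passed as lower and 1 did not (limma adjusted p = 0.0368 and 0.0648). The summed signal of 7 macrophage genes was 5028 in FORKO replicate 1, 2147 and 2861 in the others and 2218 to 2518 in WT. The sums of 7 surface epithelium genes were higher in all FORKO arrays, at 1322 to 2186 against 708.6 to 805.5 in WT. Of these 7 genes, 3 rose and 5 were higher without overlap, against 10.7% of all genes, while Msln and Lgals7 overlapped. The sums of 5 theca and interstitial genes were 9710 to 11550 in FORKO and 13160 to 14300 in WT arrays, and none of these genes passed, although Star did with the replicate block (limma adjusted p = 0.0418). Those of 4 luteal genes were 4274 to 5220 and 6073 to 6685, and 1 fell, Fdx1. Bright genes carry such sums, and neither set moved as a whole. Every FORKO array lay below every WT array for 2 of the 5 theca and interstitial genes (Cyp11a1 and Hsd3b1). The same held for 2 of the 4 luteal genes (Fdx1 and Ptgfr), against 12.0% of all genes. Cyp17a1 and Scarb1 had changes above 0 (0.58 and 0.06), and their groups overlapped. None of the 2 oviduct genes tested passed, and 4 oviduct genes had sums of 93.6 to 305.9 in FORKO and 35.8 to 65.7 in WT arrays. The 5 genes of testicular germ cells, all under the dim filter, summed to 28.5 to 39.6 in FORKO and 51.2 to 57.3 in WT arrays. This set, not expected in an ovary, was thus also lower in every FORKO array. The sums of the 4 Y-linked genes overlapped, at 10.7 to 24.8 in FORKO and 11.5 to 28.1 in WT arrays. The part of these shifts in the values of the oocyte genes was not tested.

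Other oocyte genes gave a mixed picture. Among the zona pellucida and oocyte growth factor genes, Zp2 fell (-1.29 ± 0.18, limma adjusted p = 0.0112) and Zp1, Zp3 and Gdf9 did not pass, with changes of -0.56, -0.83 and -1.31. Gdf9 read 255.0, 199.3 and 256.0 in WT and 48.1, 122.8 and 126.1 in FORKO arrays, again lowest in FORKO replicate 1. Bmp15 and the transcription factor genes Figla and Nobox were under the dim filter. Nobox read 26.9, 17.9 and 24.6 in WT and 1.9, 10.6 and 12.6 in FORKO arrays, while Figla read 8.7 to 19.7 and 12.6 to 18.0. Of 13 further oocyte genes tested (of 28 listed), Rspo2, which encodes a Wnt-enhancing factor, fell and 12 did not pass. Of the 13 changes, 12 were below 0, against 52.6% of all genes tested. Their median was -0.40, against -0.02 over all genes tested. With the replicate block Zbed3 passed as well (limma adjusted p = 0.0466). Rspo2 read 132.2, 122.2 and 121.3 in WT and 29.1, 46.6 and 45.1 in FORKO arrays (log2 change -1.53 ± 0.21, limma adjusted p = 0.0102). Of 2 early oocyte regulators tested, none passed. Lhx8 had a change of -0.54. Kit, a receptor on oocytes and other cells, read 21.1, 16.2 and 27.8 in WT and 114.5, 39.7 and 74.9 in FORKO arrays, so all FORKO arrays were higher. Its change was 1.49 (limma adjusted p = 0.0685, and 0.0329 with the replicate block).

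**Figure D4:**
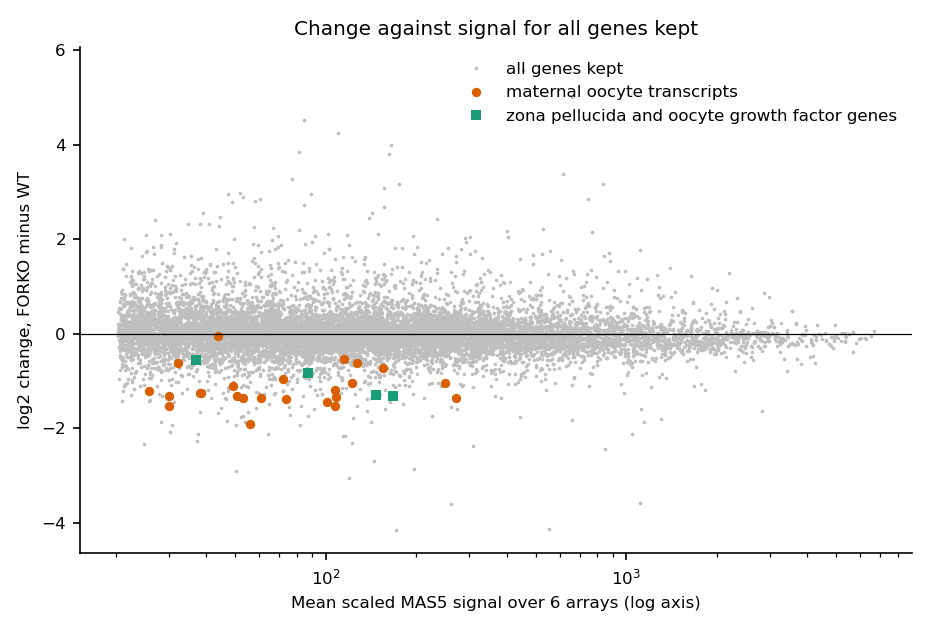
Log2 change, FORKO minus WT, against mean scaled signal over the 6 arrays (log axis) for the 11199 genes tested (grey), the 24 maternal oocyte genes (orange circles) and 4 zona pellucida and oocyte growth factor genes (green squares). All 24 orange circles lie below 0, at mean signals where grey points lie on both sides.

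Relatives of the families, listed without regard to where they are expressed, allowed members to be set beside their paralogs. Of 61 relatives, 44 had a probe set and 24 were tested: 1 fell, 1 rose and 22 did not pass, with 15 negative changes and a median of -0.28. The relative that fell was Khdc1b, a KH-domain gene of oocytes, with 314.8, 279.9 and 232.1 in WT and 81.8, 145.9 and 112.4 in FORKO arrays (log2 change -1.27, limma adjusted p = 0.0276). That probe set carries a suffix of probes shared with other transcripts. A second one, without the suffix, gave -1.30 (limma adjusted p = 0.0492). The relative that rose was Btg2, an antiproliferative gene of many cell types, with 69.9, 81.1 and 89.2 in WT and 277.3, 190.7 and 159.8 in FORKO arrays (log2 change 1.29, limma adjusted p = 0.0244). The second Btg2 probe set gave a change of 0.84 and lay just outside the threshold (limma adjusted p = 0.0502). Btg2 was higher in all FORKO arrays, and Btg4 lower. Some relatives are named here after their values were seen. Fbxw21 and Oog4 had changes of -1.26 and -1.09 and did not pass (limma adjusted p for Oog4 = 0.141). Fbxw17, which lies outside the Fbxw15 cluster, read 144.7 to 170.0 in WT and 130.2 to 172.6 in FORKO arrays (limma adjusted p = 0.994), with overlap. Sall2, the paralog of Sall4, read 46.8 to 76.1 in WT and 77.4 to 93.1 in FORKO arrays, above all WT arrays (change 0.41, limma adjusted p = 0.430).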

How the data were processed

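Per the submitters' processing notes, the authors deposited MAS5 output: for each probe set an intensity (signal), not logged. How MAS5 was set is not stated in any source used. Values ran from 0 to 9781. The 6 arrays were scaled to a common mean, trimmed by 2% at each end. After adding 5.73, the pooled 25th percentile, log2 was taken. Without the 64 controls, probe sets averaging 20.4 or more were tested (22506). limma 3.58.1 in R 4.3.3 (lmFit, eBayes with intensity trend, two-sided, Benjamini-Hochberg) compared 3 FORKO with 3 WT arrays and was checked on simulated data. The number of arrays limits the precision, and a p-value here reflects only how these samples vary, which may be technical in part. An exact permutation test of 3 against 3 cannot go below 0.1.

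The platform table gave 1 symbol for 34958 probe sets, several for 932 and none for 9211, and 34754 of those with 1 symbol were found in RefSeq's gene table (GRCm38.p6) through Entrez identifiers. Current symbols were used, since an old alias of Dazl is another gene's symbol. Every gene of the list that passed, and the 2 brightest of each role group, are given by array. Genes and lists were chosen with earlier results of these data known. Both groups carry replicate numbers 1 to 3. Deviations from the group means correlated at 0.195, 0.134 and 0.358 between same-numbered arrays. Arrays of different number were not set beside them, so these values cannot show whether the samples are paired. The labels do not state pairing. The reported values come from the fit without pairs. The fit with the replicate number as a block is an alternative, given where it changes a call. Alternatives covered scaling, pseudocount, dim filter, variance model, replicate block, each array left out and the choice of probe set. Figures were drawn with matplotlib 3.10.9.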

Additional observations from a re-analysis of the deposited data

How the results depend on the processing

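The 24 changes kept their sign under all alternatives tried except that of Dppa3, which ran from -0.17 to 0.18 without 1 array (above 0 without WT replicate 3 or FORKO replicate 3). The median change of the maternal oocyte genes moved by less than the spread of the FORKO arrays (SD 0.32) throughout. The count of genes that fell, 15, was 6 of 34 with no dim filter (0.319% of all genes), where 45037 probe sets were tested, and 4 of 10 with the stricter filter (0.786% of all genes), which keeps fewer genes; without 1 array it ran from 2 to 17. The count of all probe sets that passed, 372, was 221 with no filter, 191 with the stricter filter, and 62 to 864 without 1 array. With the replicate block it was 691, while 15 maternal oocyte genes fell. The block changed the calls of Nlrp4f and Fbxw24 among the 24, and of Kit, Zbed3, Nr5a2, Amhr2 and Star among the other listed genes. These are calls of the brightest probe set, and dimmer probe sets of Nr5a2 and Amhr2 passed without the block. Over the 10 alternatives that keep all arrays, 200 of 226 single-gene calls were as reported, 16 were lost and 10 gained. With other scalings (quantile, as deposited, same median) and with the higher pseudocount 17 genes fell. With the lower pseudocount 13 fell, and without the intensity trend 12. With the dimmest tested probe set of each gene 15 fell. Only Obox2 and Oog3 had a second tested probe set, so that count had little room to change. The cause of lost calls was not tested. Signals near the Y-linked range limit what can be said of the 10 dim genes. They also make the size of a fall uncertain where FORKO signals were that low on some or all arrays, as for Oosp2, Sall4, Omt2b, Nlrp4b and Obox5.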
